A study of Mus musculus with 72 samples.

Results

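ETS1 binding was mapped by chromatin immunoprecipitation and sequencing (ChIP-seq) in resting B cells isolated from the spleens of C57BL/6 mice. WT cells carry both Hmgn genes (Hmgn1+/+n2+/+), and DKO cells lack both (Hmgn1-/- n2-/-). HMGN1 and HMGN2 are small nuclear proteins that bind to nucleosomes. ETS1 had 2 WT and 2 DKO libraries, 4 of the 64 libraries with a peak list in the study, which covers 16 antibodies in 3 kinds of mouse cells. The question was whether the loss of HMGNs changes where, and how strongly, ETS1 is detected on chromatin. The labels give neither the age of the mice nor whether replicates came from separate animals, so p values measure only the spread between these libraries.

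The 4 ETS1 lists held 11403 peaks of the 1156918 in all lists of the study. Peaks that shared at least 1 bp were merged across the 4 lists into 5840 sites. Both WT lists but no DKO list held 1977 of these (WT-only sites), all 4 lists held 743 (shared sites) and the DKO lists alone held 6 (DKO-only sites). A further 573 sites had a peak in both WT libraries and 1 DKO library, and 2339 in a single WT library alone. The other 202 showed other patterns with at least 1 DKO library. With every list cut to its 1098 strongest peaks, 151 sites were WT-only, 462 shared and 124 DKO-only, so the class sizes depend on the lengths of the lists. The classes follow from the calls, so that WT-only sites have no DKO peak is their definition and not a result.

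ETS1 is a founding member of the ETS family of transcription factors, which recognise a GGAA core through a winged helix-turn-helix domain. It is abundant in lymphocytes and, in B cells, is known to hold back differentiation into plasma cells. Next to its own site it often meets partner factors such as RUNX1 and PAX5, which help it to bind DNA. GABPA, ELF1 and other family members read nearly the same core, particularly at promoters of housekeeping genes.

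Sequences are shown for those of the 10 strongest promoter and 5 strongest distal sites of the WT-only and of the shared class that held the ETS motif, because the letters around the GGAA core differed between promoter and distal sites. The motif searched was CCGGAAG or CAGGAAG on either strand within 100 bp of the summit of the strongest peak. Each line gives the mm9 genome sequence on the strand that carries the motif, 5′ to 3′, with the motif in capitals. The first 5 are WT-only promoter sites, followed by a WT-only distal site in Rara, 2 shared promoter sites and 3 shared distal sites.
Hspa4, chr11:53114232-53114292, minus strand: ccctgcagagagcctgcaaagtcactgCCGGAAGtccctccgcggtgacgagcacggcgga
Necap2, chr4:140634260-140634288, plus strand: ccccttcaggaCCGGAAGtgatgcgactc
Vta1, chr10:14425265-14425293, plus strand: catctccactcCCGGAAGcgctacttcct
Arhgap30, chr1:173319066-173319094, plus strand: agatgctctaaCAGGAAGcgggtttgagg
Inpp1, chr1:52857224-52857284, minus strand: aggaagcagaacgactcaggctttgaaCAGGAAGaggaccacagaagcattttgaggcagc
Rara intron, chr11:98804836-98804896, minus strand: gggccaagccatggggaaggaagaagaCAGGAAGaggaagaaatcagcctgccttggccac
Rpl32, chr6:115758805-115758865, minus strand: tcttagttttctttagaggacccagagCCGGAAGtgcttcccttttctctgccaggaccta
Arid5b, chr10:67741749-67741809, plus strand: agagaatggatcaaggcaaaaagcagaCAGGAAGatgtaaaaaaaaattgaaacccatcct
Slc10a7 intron, chr8:81148092-81148152, plus strand: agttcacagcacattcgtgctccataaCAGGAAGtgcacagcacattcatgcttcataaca
Arid1a intron, chr4:133263031-133263091, plus strand: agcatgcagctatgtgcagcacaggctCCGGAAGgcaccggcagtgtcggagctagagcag
Fnbp1 intron, chr2:30938426-30938486, plus strand: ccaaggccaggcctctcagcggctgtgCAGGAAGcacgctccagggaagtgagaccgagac

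ETS1 was called in far fewer places in DKO than in WT B cells. The WT lists held 4524 and 4561 peaks, and the DKO lists 1220 and 1098. The groups did not overlap, and the lists within each genotype were of similar length. The difference was −1.97 ± 0.07 (SE) on the log2 scale of peak number (limma fitted over 16 antibodies, adjusted p = 0.00158), or 3.92-fold more peaks in WT. The same test called 9 of the 16 antibodies of the study fewer in DKO (56.2%), among them all 5 of the resting B cells. Alone, 2 libraries against 2 cannot give an exact two-sided p below 0.333. The limma call uses ETS1's own spread, moderated by that of the other antibodies.

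Promoter and distal peaks both became fewer. A peak counted as promoter when a protein-coding transcript started no more than 1000 bp away. The WT lists held 1558 and 1625 of these and the DKO lists 340 and 328, a log2 difference of −2.25 ± 0.07 (SE, limma, adjusted p = 0.000612, 8 of 16 antibodies fewer, 50%). For distal peaks the numbers were 2966 and 2936 against 880 and 770, a log2 difference of −1.84 ± 0.09 (SE, limma, adjusted p = 0.0018, 10 of 16 fewer, 62.5%). The share of promoter peaks was 34.4% and 35.6% in the WT lists and 27.9% and 29.9% in the DKO lists. The promoter change exceeded the distal change by 0.41 ± 0.08 (SE) on the log2 scale (limma, adjusted p = 0.0239, 4 of 16 antibodies with the same direction, 25%, and 5 with the other). That call was lost for peaks with −log10 p of at least 10 (adjusted p = 0.0809) or fold enrichment of at least 4 (0.0572), and without WT replicate 1 (0.0526), WT replicate 2 (0.0707) or DKO replicate 1 (0.0516). In the same cells PAX5 (−1.02, adjusted p = 0.0209) and OCT2 (−0.81, 0.0374) passed the same limma test in the direction of ETS1. IRF8 did not pass (−0.63, 0.0675), and IKAROS passed in the other direction (0.28 ± 0.06 SE, limma, adjusted p = 0.0311).

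DKO peaks lay almost entirely on WT peaks. Of the DKO peaks, 92.7% and 93.7% of those of replicate 1, and 91.7% and 93.4% of those of replicate 2, overlapped a peak of WT replicates 1 and 2. In the other direction, 22.1% to 24.9% of WT peaks overlapped a peak of a DKO library. Replicates overlapped by 73.0% and 72.6% in WT and by 63.7% and 71.0% in DKO, each as a share of one list.

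**Figure D1:**
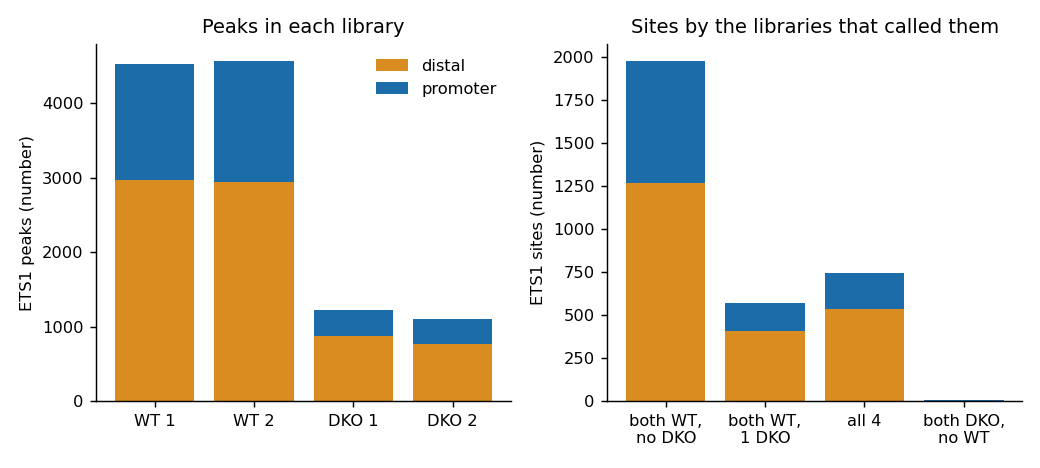
Number of ETS1 peaks in each library (left) and of merged sites by the libraries that called them (right), with distal in orange and promoter in blue. The DKO libraries held 1220 and 1098 peaks against 4524 and 4561 in WT, and only 6 sites were called by both DKO libraries alone, or 124 with the same number of top peaks from each library.

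Among sites called in both WT libraries, WT-only sites were weaker than shared sites. The fold enrichment of a peak is the ratio of its read pileup at the summit to the local background, with 1 added to each, as given by the peak caller. In WT replicates 1 and 2 its median was 5.72 and 5.87 at WT-only sites and 8.43 and 8.75 at shared sites. The mean −log10 p of a WT-only site over both WT libraries had a median of 14.9 and was 6.18 at the weakest, against 5.25 and 5.30 for the weakest single peak of the WT lists. Sites called in both WT libraries were divided into 10 classes of equal size by this mean. In the weakest class 304 of 330 sites had no DKO peak (92.1%, 95% exact binomial interval 88.7 to 94.8, here and below for counting error only), and in the strongest 20 of 330 (6.06%, 3.74 to 9.21). The share fell in each of the 10 classes in turn.

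Promoter sites had no DKO peak more often than distal sites, and they were also weaker in WT. Among sites called in both WT libraries, 707 of 1076 promoter sites (65.7%, 62.8 to 68.5) and 1270 of 2217 distal sites (57.3%, 55.2 to 59.4) were WT-only. Promoter sites made up 35.8% of WT-only sites (707 of 1977) and 27.9% of shared sites (207 of 743, 24.7 to 31.2). With the same number of top peaks from each library this order turned, to 23.2% of WT-only and 25.8% of shared sites. They made up 40.0% of the weakest strength class and 23.0% of the strongest. Within a class the promoter share without a DKO peak was the higher one in 9 of 10 classes, by −5.82 to 7.43 percentage points, and the intervals overlapped in each of the 10 classes. They were 93.2% and 91.4% in the weakest class, 72.7% and 65.3% in class 6, 20.9% and 26.7% in class 9 and 6.58% and 5.91% in the strongest. In classes 7 to 9, where both kinds of site were frequent, promoters made up 29.9% of 385 WT-only sites (25.3 to 34.7) and 29.1% of 351 shared sites (24.4 to 34.1).

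**Figure D2:**
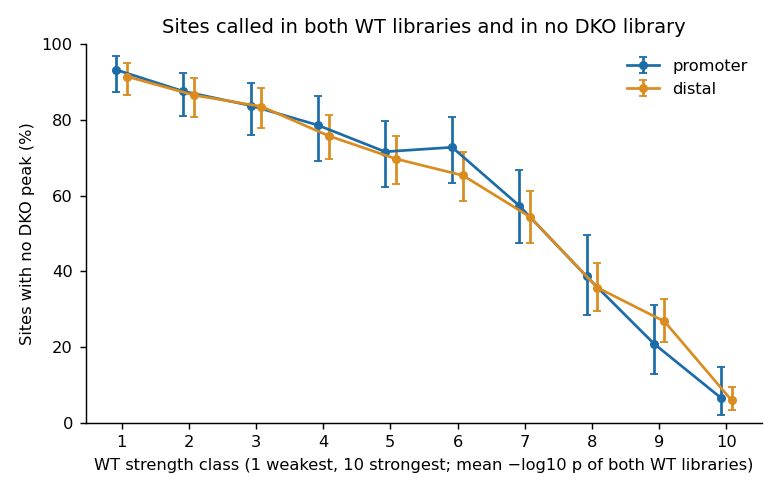
Percentage of sites called in both WT libraries that had no DKO peak, in 10 classes of WT strength from weakest to strongest, for promoter (blue) and distal (orange) sites, with 95% exact binomial intervals. Both lines fall from over 90% to about 6%, and their intervals overlap in every class.

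The 10 strongest WT-only promoter sites, by mean −log10 q, are given next. Values are fold enrichments in WT replicates 1 and 2. Hspa4, a chaperone of the HSP70 superfamily, had 13.9 and 9.89 (chr11:53114010-53114370, mm9, with the edge of the site 51 bp from the start). Fam111a, a protease-like restriction factor, had 14.0 and 12.7, with the summit in an intron and the edge of the site 562 bp from the start. Both also overlapped an IKAROS peak in both WT IKAROS libraries.

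Arhgap30, a GTPase-activating protein of blood cells, had 12.2 and 13.1, and this promoter carried a RUNX motif beside the ETS motif. Dennd4b, a Rab exchange factor, had 13.0 and 11.7. Inpp1, an inositol phosphate phosphatase, had 11.8 and 11.95, and 9430023L20Rik had 8.33 and 11.3. At Necap2, an adaptor of endocytosis, the values were 8.82 and 11.2, and at Vta1, which acts in endosomal sorting, 9.38 and 9.68. Bre and Rbks share 1 site, with 7.37 and 9.35. Cd22, the sialic acid-binding inhibitory co-receptor of B cells, had 10.7 and 10.4 at chr7:31664006-31664285, with the summit in an intron.

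The 5 strongest distal WT-only sites lay near Samsn1, P2ry12, Lmo2, Rara and Cryba4. At Samsn1, an adaptor that dampens B cell activation, the intronic site at chr16:75921110-75921415 had 11.9 and 13.6. The site in P2ry12, a purinergic receptor gene that lies within Med12l, had 15.96 and 13.0. Near Lmo2, a LIM-domain regulator of blood cell development, an intergenic site 62618 bp from the start had 10.98 and 16.7. The intronic site in Rara, the retinoic acid receptor alpha gene, had 11.1 and 12.5, and the site near Cryba4 had 13.1 and 12.9. All 5 overlapped an IKAROS peak in both WT IKAROS libraries.

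The strongest shared sites were promoters with much higher fold enrichment. Cdca7, a cell cycle-associated gene, led with 65.7 and 60.2 in WT and 51.3 and 59.6 in DKO (chr2:72313852-72314391), which did not differ beyond the spread (log2 change −0.19 ± 0.22 SE, limma, adjusted p = 0.502). Rpl32, a protein of the large ribosomal subunit, had 47.8 and 46.3 in WT and 21.7 and 20.8 in DKO (−1.15 ± 0.21 SE, limma, adjusted p = 0.000786). At the bidirectional promoter of Cdc40, a splicing factor, and Wasf1, an actin regulator, the values were 54.4 and 43.7 in WT and 16.4 and 19.3 in DKO (−1.45 ± 0.22 SE, limma, adjusted p = 0.000246). At these last 2 promoters the genotypes were far apart.

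Arid5b, a DNA-binding subunit of a histone demethylase complex, had 49.1 and 54.6 in WT against 26.9 and 29.3 in DKO. At the promoter shared by Cnpy4 and Taf6, the latter a subunit of TFIID, 45.7 and 50.8 stood against 26.8 and 26.0. Riok2, a kinase of ribosome assembly, had 42.7 and 39.7 against 26.1 and 27.3. The differences at these 3 promoters, and at those of Ostc and Zfp335, passed the threshold. Rnf187 (31.9 and 31.4 against 22.6 and 24.9) and the promoter of 1700106N22Rik and Prepl (24.1 and 25.7 against 18.8 and 20.2) did not pass (adjusted p = 0.115 and 0.175). Of these 10 promoters, only those of Rpl32 and Arid5b held the ETS motif within 100 bp of the summit. The 5 strongest distal shared sites, near Plekhm3, Fnbp1, Arid1a, Txnip and Slc10a7, all overlapped an IKAROS peak and all passed the threshold with lower values in DKO. These calls of strength, and those at the genes described next, are of fold enrichment. With the read pileup in its place, which is described further on, 0 of the 627 shared sites with solved pileups passed. The promoters of Cdca7, Cnpy4 and Taf6, Riok2, Rpl32, Arid5b, and Cdc40 and Wasf1 are not among these, since their WT pileups could not be solved. The 5 distal sites had adjusted p from 0.524 to 0.994 (limma).

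ETS1 sites lay at most B cell marker genes and at few or none of the myeloid, NK cell and erythroid ones. Of 15 B cell marker genes, 11 had a site of any library at a promoter, against 10.1% of 22219 protein-coding genes. For 5 of these the promoter site was called in 1 library only (Pax5, Blk, Cr2 and Fcrla in WT, Fcer2a in DKO). Promoters of 0 of 15 myeloid, 0 of 8 NK cell and 0 of 8 erythroid markers had one. Of the T cell markers 2 of 15 (Cd2 and Cd5, in 1 WT library each) and of the plasma cell markers 1 of 7 (Prdm1, in 1 WT library) had one. Within Prdm1, which encodes the plasma cell factor BLIMP1, an intronic WT-only site with an ETS motif had 12.6 and 13.6. Over the gene and the 5000 bp before it, a site of any library lay at 14 of 15 B cell, 4 of 15 T cell, 2 of 7 plasma cell, 1 of 8 erythroid, 0 of 15 myeloid and 0 of 8 NK cell markers, against 15.5% of all protein-coding genes. The T and plasma cell markers with a shared site there were Cd3d, a chain of the T cell receptor complex, and Irf4, which B cells also use. No site fell at Hmgn1 or Hmgn2 in any library, and ChIP-seq of ETS1 gives no measure of whether these genes were deleted.

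B cell markers divided between the classes. All counts of shared promoter sites below are read against 1.12% of all protein-coding genes, and those of WT-only promoter sites (with no shared one) against 3.44%. Of the 15 markers, 3 had a shared and 3 a WT-only promoter site. Cd79a, which encodes the Igα chain of the B cell receptor and is a known target of ETS1 with PAX5, had 10.8 and 9.42 in WT and 7.70 and 9.95 in DKO at chr7:25682154-25682612. The tetraspanin gene Cd37 had 8.54 and 11.6 against 8.77 and 7.41, and the adaptor gene Bank1 had 11.1 and 8.39 against 6.45 and 8.80. None of these 3 passed the test of strength (adjusted p = 0.471, 0.287 and 0.221). The WT-only promoters were Cd79b, encoding Igβ (4.08 and 4.73), Ms4a1, encoding CD20 (3.82 and 3.69), and Cd22 (above). The 2 chains of the same receptor thus fell in different classes, and their promoters differed in WT strength by more than the spread between the WT libraries.

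Many genes of B cell receptor signalling carried ETS1 sites. Of 29 genes, 12 had a shared site (2.46% of all genes) and 16 a WT-only site (6.21%) in the gene or the 5000 bp before it, promoters included. At promoters alone, 1 had a shared site (Cd79a) and 6 a WT-only site. Besides Cd79b and Cd22, these included the phosphatase genes Ptpn6 (SHP-1, 4.86 and 5.59) and Inpp5d (SHIP1, 10.1 and 9.45), and Malt1 (7.34 and 6.60), which acts between the receptor and NF-κB. Introns of Inpp5d held 2 shared sites, of which the stronger passed the test with lower values in DKO. That site had 13.0 and 11.4 against 5.78 and 6.13 (−1.03 ± 0.22 SE, limma, adjusted p = 0.00172). Sites at Pik3ap1, Nfatc1 and Ptprc (CD45) also passed, and those at Lyn, Fyn, Blnk, Cd72 and Rasgrp3 did not.

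Among transcription factors and partners of ETS1, 13 of 30 had a WT-only site (6.21% of all genes) and 4 of 30 a shared site (2.46%) in the gene or the 5000 bp before it. Tcf3, which encodes E2A, had the single shared promoter site, with 10.4 and 10.1 in WT and 5.09 and 5.05 in DKO (−1.02 ± 0.21 SE, limma, adjusted p = 0.00172). WT-only promoter sites were those of Runx1 (4.75 and 6.66), Pou2af1, the co-activator OCA-B (8.49 and 7.63), and Nfkb1 (4.75 and 5.39). Shared intronic sites in Nfatc1 (9.86 and 11.4 against 3.56 and 4.76), Irf4 (12.8 and 11.1 against 4.34 and 6.33) and Bach2 (10.04 and 9.71 against 6.04 and 5.15) passed the test with lower values in DKO.

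The list of ETS genes held 27 with an annotation, among them Gabpb1, a partner chain of GABPA with no ETS domain of its own. Shared promoter sites lay at 2 of these genes, Elf2 and Gabpb1, and WT-only ones at 3. Elf2 had 8.51 and 5.39 in WT and 7.63 and 6.96 in DKO, and Gabpb1 had 6.02 and 10.1 against 6.46 and 6.81, and neither passed the test. Fli1, Elk3 and Elk4 had WT-only sites, with 4.36 and 4.73 at Fli1, 6.29 and 9.66 at Elk3 and 4.16 and 4.94 at Elk4. Ets1 carried 1 site, WT-only and intronic, at chr9:32459826-32460147, 16020 bp from its nearest start, with 6.92 and 5.79.

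Homing, survival and costimulation receptors had 4 of 26 WT-only promoter sites, at Ccr7 (6.25 and 5.38), Cxcr5 (5.37 and 6.83), Ifnar1 (5.56 and 5.90) and Itgal (11.6 and 5.83), and 1 shared, at Tlr4. Tlr4, the receptor for lipopolysaccharide, had 14.0 and 11.4 in WT and 11.8 and 11.7 in DKO, which did not pass the test (adjusted p = 0.711). The intronic site in Bcl2, which protects from apoptosis, had 14.9 and 16.2 against 7.64 and 7.95 and passed (−0.997 ± 0.21 SE, limma, adjusted p = 0.00191). For antigen presentation, 2 of 19 promoters were WT-only, those of H2-DMb2 (5.61 and 6.40) and H2-Ob (5.52 and 6.27), which encode chains of non-classical class II molecules, and 0 were shared.

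Among the housekeeping lists, cytosolic ribosomal protein genes had the most promoter sites. Of 76 genes of the cytosolic ribosome, 33 had a promoter site of any library (43.4%, against 10.1% of all protein-coding genes). At 4 of these genes the site was shared, and at 13 it was WT-only. The shared ones were Rpl32, Rpl18 (7.57 and 6.77 in WT, 3.85 and 3.84 in DKO), Rps19 and Rps7, and all but Rps19 passed the test with lower values in DKO. Among the WT-only ones, Rpl26, Rpl27a, Rpl30, Rpl31, Rpl36a and Rpl38 had values between 4.15 and 10.1, and the site at Rpl36a also lay before Btk, the kinase gene of B cell receptor signalling. These genes have many processed copies, and how reads that fit several places were treated is not given in the sources used here.

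Mitochondrial ribosomal protein genes had 5 shared and 5 WT-only promoter sites among 76. Mrpl44 had 16.4 and 19.02 in WT and 5.01 and 5.67 in DKO (−1.73 ± 0.22 SE, limma, adjusted p = 9.79e-05), and Mrpl1 also passed, with Mrpl12, Mrpl52 and Mrps10 not passing. WT-only sites lay at Mrpl13, Mrps18c, Mrps23, Mrps27 and Mrps31. Respiratory chain genes had 3 shared sites (Ndufa4, Ndufb3 and Ndufs1) and 1 WT-only site (Ndufb7) among 84. Proteasome genes had 1 shared site (Psmd12) and 5 WT-only sites (Psma6, Psmb1, Psmc1, Psmd6 and Psmg3) among 48.

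Strength was then compared at the 743 shared sites. Fold enrichment was lower in DKO at 369 sites (49.7%) and higher at 13 (1.75%, limma on log2 fold enrichment over the shared sites, adjusted p below 0.05), with a median log2 change of −0.57. Of 207 promoter sites 91 were lower and 4 higher, with a median of −0.49, and of 536 distal sites 278 were lower and 9 higher, with a median of −0.61. Only sites still called in DKO entered this test. The labels list 1 input per genotype. Where the 2 libraries of a genotype shared an input, their spread holds no variation between inputs, and the p values of strength do not measure it. Centred on the median of each library, 69 sites were lower and 71 higher. Before centring, 84.9% of the shared sites had a change below 0.

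The largest decreases included those at Slc10a7, Ppp1r16b, Hs3st1 and Cmtm6. The site in an intron of Slc10a7, 114496 bp from the start, had 25.3 and 22.4 in WT and 4.73 and 5.19 in DKO (−2.26 ± 0.22 SE, limma, adjusted p = 2.39e-05). At Ppp1r16b, a regulator of protein phosphatase 1, a site at a promoter had 18.96 and 20.7 against 4.89 and 4.58. At Hs3st1, a heparan sulfate sulfotransferase, the values were 22.7 and 21.1 against 4.63 and 6.70, and at Cmtm6, a membrane protein that stabilises PD-L1, 17.3 and 13.3 against 3.52 and 4.30.

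Sites with higher values in DKO were few. The 5 largest increases were near Fam49a, Lpgat1, Las1l, Ly6c2 and Grtp1. An intergenic site 318576 bp from Fam49a had 5.22 and 5.54 in WT and 9.50 and 14.7 in DKO (1.14 ± 0.24 SE, limma, adjusted p = 0.00191). An intronic site of Lpgat1 had 3.398 and 2.69 against 5.25 and 7.10. Las1l, a ribosome assembly factor on chromosome X, had 6.05 and 6.02 against 11.4 and 10.1 near its promoter.

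**Figure D3:**
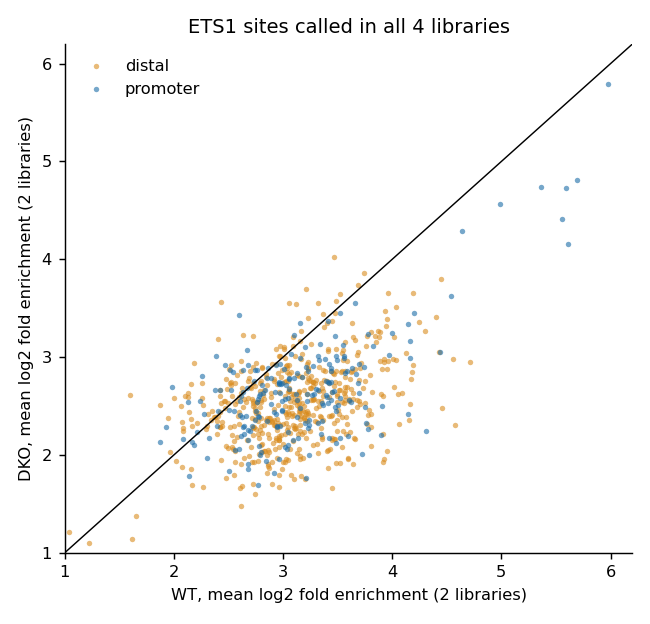
Mean log2 fold enrichment in WT (horizontal axis) against DKO (vertical axis) at the 743 shared sites, distal in orange and promoter in blue, with the line of equal values. Most points lie below the line, with a median log2 change of −0.57, and 13 sites passed the test above it.

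Pileup and background, the parts of the fold enrichment, moved differently. The fold enrichment and −log10 p of a peak fix its pileup (the reads over the summit) and the local background of the caller, and both were solved for 95.4% to 98.5% of the peaks of each library. The labels list 1 WT and 1 DKO input for these cells. To set the libraries on 1 scale, both were divided by the lowest background in the library's list, which was 1.75 and 1.66 reads in WT and 1.75 and 1.19 in DKO. This value rests on 22 and 27 peaks in WT and on 1 and 2 in DKO, and whether it is the floor of the whole genome in the DKO libraries was not tested. All relative values here and the factor used for scoring peaks again depend on it. On this scale, the median pileup at shared sites was 27.5 and 28.3 in WT and 28.0 and 29.5 in DKO. The median local background was 2.56 and 2.75 in WT and 4.28 in both DKO libraries. On this scale the median pileups of the 4 libraries lay close together, while the median backgrounds of the genotypes were apart.

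With the relative pileup in place of fold enrichment, limma called 0 of 627 shared sites with all values solved (55 at an unadjusted p below 0.05), with a median log2 change of 0.06. Fold enrichment at those 627 sites gave 318 calls, 308 of them lower in DKO. Across the same sites the log2 pileup correlated by Pearson's r of 0.85 between the WT libraries, 0.82 between the DKO libraries and 0.78 to 0.82 between genotypes. The log2 background correlated by 0.89 and 0.91 within the genotypes and by 0.36 to 0.43 between them. These correlations are across sites, which share libraries and inputs.

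The named sites show the same 2 parts. At the Slc10a7 site the pileups were 106 and 103 reads in WT and 99 and 70 in DKO, over backgrounds of 3.22 and 3.65 in WT and 19.96 and 12.7 in DKO. At Hs3st1 85 and 78 reads lay over 2.78 and 2.74 in WT, and 68 and 68 reads over 13.7 and 9.30 in DKO. Near Fam49a, where fold enrichment was higher in DKO, 51 and 50 reads lay over 8.96 and 8.21 in WT, and 58 and 51 over 4.99 and 2.54 in DKO. At each of these 3 sites the background differed between the genotypes by more than the pileup did.

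**Figure D4:**
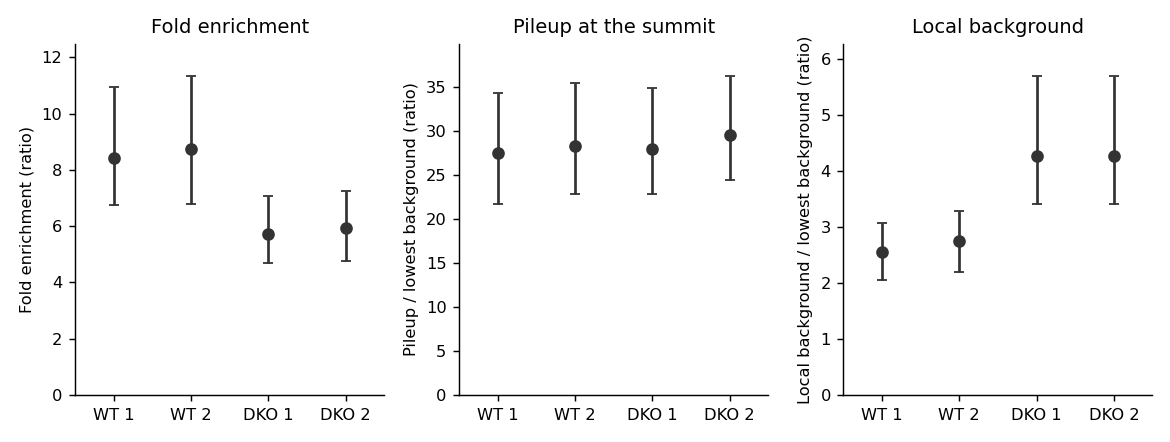
Fold enrichment (left), pileup at the summit (middle) and local background (right) at shared sites in each library, the last 2 divided by the lowest background of the library; points are medians and bars span the quartiles. The pileup medians lie between 27.5 and 29.5 in all 4 libraries, and the background medians are 2.56 and 2.75 in WT and 4.28 in both DKO libraries.

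The same 2 parts were set beside the number of peaks. The relative background at shared sites was 1.61 times higher in DKO. WT peaks with a solved background were scored again with it raised by this factor, and the 198 and 209 WT peaks without one were kept unscored and are part of the counts that follow. At each library's own depth, 3855 of 4524 and 3941 of 4561 WT peaks remained at the lowest −log10 p of the DKO lists (5.84) as the minimum, and the log2 difference in peak number was −1.75 ± 0.07 (SE, limma, adjusted p = 0.00158), against −1.97 as called. With all libraries also brought to the lowest depth, 2875 and 3006 WT peaks remained, and the difference was −1.35 ± 0.07 (SE, limma, adjusted p = 0.00192). Both settings were added after the values were seen. The factor comes from shared sites, and whether it holds at WT-only sites was not tested. At WT-only sites the DKO pileup and background are unknown, since a library that called no peak gives neither. In WT these sites had median pileups of 27 and 27 reads, against 48 and 47 at shared sites.

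Both forms of the ETS motif were found at WT-only and shared sites. It was present at 47.8% of WT-only promoter sites (44.1 to 51.6) and 52.7% of shared ones (45.6 to 59.6), against 16.9% of windows of the same length at all protein-coding starts. Among distal sites it was at 37.6% of WT-only sites (35.0 to 40.4) and 42.2% of shared ones (37.9 to 46.5), against 8.58% and 8.40% in windows 5000 bp away. The form CCGGAAG, seen above at Hspa4, Necap2, Vta1 and Rpl32 and at the distal site in Arid1a, was at 33.2% and 32.9% of WT-only and shared promoter sites, against 8.61% of windows at all starts. At distal sites it was at 5.35% and 6.53%, against 0.630% and 0.933% at 5000 bp. CAGGAAG, seen at the promoters of Arhgap30, Inpp1 and Arid5b and at the distal sites in Rara, Fnbp1 and Slc10a7, was at 18.4% and 23.7% of promoter sites, against 9.01% at all starts. At distal sites it was at 33.9% and 37.9%, against 7.95% and 7.74% at 5000 bp. The promoter and distal forms thus differed far more than the site classes did, and within promoter and within distal sites the intervals of the classes overlapped for each form. Over all sites CAGGAAG was at 28.3% of WT-only (26.3 to 30.4) and 33.9% of shared sites (30.5 to 37.4), with intervals that did not overlap.

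The RUNX motif (TGTGGTT or TGCGGTT, either strand) was more frequent at shared distal sites. It was at 15.0% of WT-only distal sites (13.0 to 17.0) and 22.6% of shared ones (19.1 to 26.4), over 5.31% and 6.90% at 5000 bp, and at 6.51% and 8.70% of promoter sites, against 3.95% at all starts. By library, 16.8% and 17.2% of WT and 20.9% and 22.2% of DKO distal peaks had it. In strength classes 7 to 9 the distal shares were 14.4% of 270 WT-only sites (10.5 to 19.2) and 20.5% of 249 shared ones (15.6 to 26.0), with overlapping intervals. The composite ETS-IRF motif (GGAANNGAA) was at 20.3% and 22.2% of WT-only and shared distal sites, over 6.81% and 8.21% at 5000 bp. A PU.1 motif (GAGGAAG), which has the GGAA core but another first letter than the ETS motif searched, was at 33.9% and 37.5%, over 7.83% and 8.49%.

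The other motifs were at or under their level 5000 bp away or rare. The IKAROS motif TGGGAA was at 14.1% of WT-only and 13.9% of shared sites, against 18.6% and 18.5% at 5000 bp. NFY motifs (CCAATCA or CCAATGA) were at 3.44% and 2.96% against 4.50% and 3.97%, and the NRF1 motif (GCATGCGC) at 0.759% and 1.35% against 0.278% and 0.336%. A missing match says only that these letters are not in the window.

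IKAROS, a zinc finger factor of lymphocytes, had by far the longest WT lists of the other 4 B cell antibodies, and shares between antibodies follow the length of their lists. The mean log2 number of WT peaks was 13.29 for IKAROS, 9.78 for IRF8, 7.99 for PAX5 and 6.10 for OCT2. An IKAROS peak in both WT IKAROS libraries overlapped 45.9% of WT-only sites (43.7 to 48.2) and 60.7% of shared sites (57.1 to 64.2). At promoters the shares were 50.9% and 53.6%, with overlapping intervals, and at distal sites 43.1% (40.4 to 45.9) and 63.4% (59.2 to 67.5). Among distal sites of strength classes 7 to 9 they were 52.6% of 270 (46.5 to 58.7) and 60.6% of 249 (54.3 to 66.8), again with overlapping intervals. These shares count any overlap. With the ETS1 summit inside the IKAROS peak they were 19.4% of all WT-only and 31.2% of all shared sites. IRF8 overlapped 11.3% and 20.1% of WT-only and shared distal sites, and PAX5 2.36% and 9.51%. For IRF8 and PAX5 no comparison within strength classes was made. OCT2 overlapped 8 of 1977 and 3 of 743 sites. None of the other 4 B cell antibodies had a peak in both of its WT libraries at 48.8% of WT-only and 33.5% of shared sites. The strongest shared promoter, Cdca7, was among them.

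**Figure D5:**
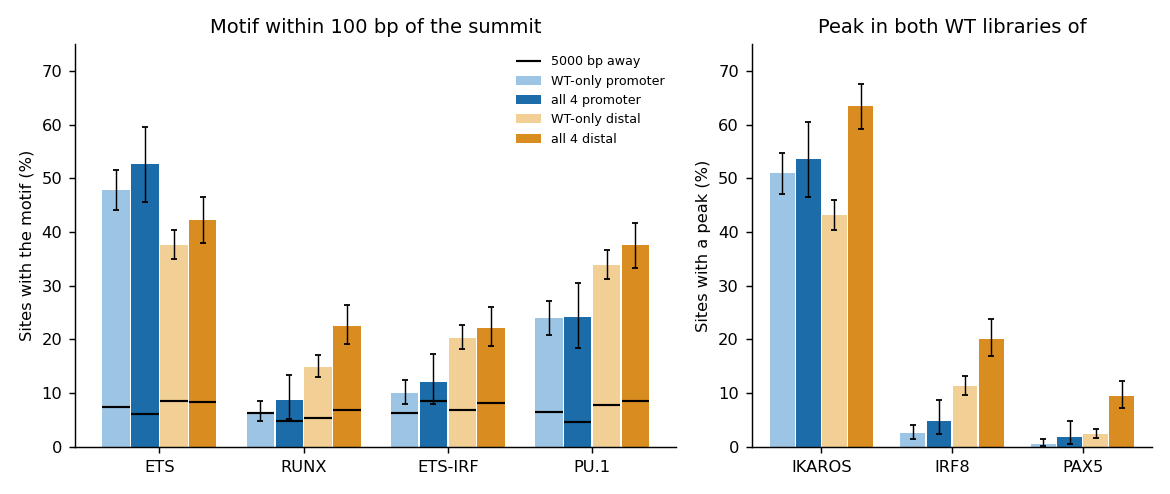
Percentage of promoter (blue) and distal (orange) sites, WT-only (light) and shared (dark), with a motif within 100 bp of the summit (left) and with a peak of another factor in both of its WT libraries (right); error bars are 95% exact binomial intervals and black lines the share in windows 5000 bp away. Shared distal sites exceed WT-only distal sites for RUNX (22.6% against 15.0%) and for IKAROS (63.4% against 43.1%). In WT strength classes 7 to 9, not drawn here, the intervals overlap for RUNX (20.5% against 14.4%) and for IKAROS (60.6% against 52.6%).

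The 6 DKO-only sites had median fold enrichments of 5.09 and 5.55 in DKO replicates 1 and 2, close to the 5.33 and 5.51 of all peaks of these lists. Those at the promoters of Prkag1, a subunit of AMP-activated kinase (4.98 and 6.12 in DKO replicates 1 and 2), and Rps23 (5.20 and 6.08) held the ETS motif. Distal ones included an intronic site in Ptpn6 (6.85 and 6.31, chr6:124679937-124680106), which lay beside a WT-only site of the same intron (5.53 and 5.36, chr6:124680269-124680431), and sites near Timm8a2 (6.16 and 4.64) and Hibadh (4.21 and 5.02). Their number depended on the libraries used and was 13 to 45 when 1 library was left out.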

How the data were processed

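Members, gene lists and motifs were chosen with earlier results of these data known. Per the labels' processing notes and the study's methods, the authors converted reads with bcl2fastq 1.8.4, trimmed them with cutadapt 1.16, aligned them to mm9 with BWA (07.17) and called peaks per library with MACS2 2.1.1.20160309 against input. The deposited values are the authors' fold enrichment (a ratio of pileup to local background, 1 added to each), −log10 p and −log10 q at each summit, and a score derived from them, which was not used. Read totals are not in the lists, so depth was taken from the solved backgrounds. The study's methods give a q cutoff of 0.05, but the lowest −log10 q in the deposited lists was 2.01 to 2.06, so a stricter cutoff than stated may apply to them, and 0 intervals were repeated.

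Peaks were merged at 1 bp, and a site's value was its highest peak in each library. Pileup and background were solved from fold enrichment and the Poisson p; pileups fell within 0.03 of whole reads, after division by 0.802 in DKO replicate 1. Promoters were within 1000 bp of a protein-coding start in GENCODE vM1 (mm9 coordinates). Motifs were read from the NCBIM37 genome, the same build, with pysam 0.24.0. Tests used limma 3.58.1 in R 4.3.3 with Benjamini-Hochberg adjustment: log2 peak number (number + 1 for promoter and distal) over 16 antibodies, and log2 fold enrichment over the shared sites. The labels list 1 input per genotype, and which input served each library is not given in the sources used here. Shares have 95% Clopper-Pearson intervals and no test, since sites are not replicates. The merging of peaks, the solving of pileups and the limma fit of strength were tested on simulated data, and the other steps were not.

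Named sites were, by mean −log10 q, the 10 promoter and 5 distal WT-only and shared sites and the 3 and 3 DKO-only sites, on chromosomes 1 to 19 and X. The 5 largest changes past the threshold in each direction were added, and from each list up to 6 genes with a WT-only and 4 with a shared promoter site. Distal sites take the nearest start. Some named genes are not reported here. Symbols Nlrc5, Spi1 and Syk of the lists had no match in the annotation. Replicate numbers are shared by the genotypes but not described as pairs, so the main fits had no block.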

Additional observations from a re-analysis of the deposited data

How the results depend on the processing

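The 12 alternatives for peak number gave log2 changes of −2.14 to −1.35 (adjusted p from 1.49e-05 to 0.00883), and all 9 each for promoter and distal peaks passed. The promoter minus distal change passed in 4 of 9, and was −0.32 at −log10 p of at least 10, −0.36 at fold enrichment of at least 4, and −0.48 to −0.34 with 1 library left out; the cause was not tested. With the same 1098 top peaks from each library, WT-only, shared and DKO-only sites numbered 151, 462 and 124, 23.2% of WT-only and 25.8% of shared sites were promoters, so their order turned, and 44.4% of WT-only sites had the ETS motif. Leaving out 1 library gave 2204 to 3169 WT-only sites (3169 and 3149 without WT replicates 1 and 2), 751 to 1089 shared and 13 to 45 DKO-only sites, with promoter shares of 34.4% to 38.7% and 27.5% to 28.5%. Promoter shares of WT-only sites were 33.4% at −log10 p of at least 10, 32.6% within 500 bp and 41.3% within 2500 bp of a start, and that of shared sites 33.0% within 2500 bp. Median WT fold enrichment of WT-only and shared sites was 6.29 and 8.86 at −log10 p of at least 10. Without this cut, the median −log10 p of the classes, averaged over the WT libraries, was 14.7 and 30.9. The ETS motif was within 50 bp at 29.4% and 30.1%, and CCGGAAG alone at 15.3% and 13.9%. With the summit inside the IKAROS peak the IKAROS shares were 19.4% and 31.2%, and with either WT IKAROS library 59.1% and 73.1%. The strength test called 288 to 330 sites with 1 library left out, 140 when centred and 0 on pileups. The replicate block gave 317 calls of strength and −1.97 for peak number (adjusted p = 0.00883), and changed no call of peak number; deviations of same-numbered libraries correlated by −0.02 over shared sites. Pileup at sites a library did not call cannot be had from these lists.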

Other observations

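ETS1 sites of B cells were also compared with peaks of other cells in the study, both WT libraries of each. A peak of H3K27ac, a mark of active promoters and enhancers, in embryonic fibroblasts overlapped 74.4% of WT-only and 76.8% of shared promoter sites, and 17.0% and 13.8% of distal sites. Brd3, a reader of acetylated chromatin, overlapped 64.5% and 70.0% of promoter sites there and 8.35% and 5.78% of distal sites. CTCF in embryonic stem cells overlapped 18.0% and 20.8% of promoter sites and 4.803% and 4.48% of distal sites. The median number of CpG dinucleotides within 100 bp of the summit was 14 and 15 at promoter sites and 3 at both kinds of distal site.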
